A study of Homo sapiens with 78 samples.

Results

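The genes described are 10 pseudogenes in the human nuclear genome that are copies of mitochondrial protein genes: MTND1P23, MTND2P28, MTND4P12, MTND5P11, MTND6P4, MTCYBP18, MTCO1P12, MTCO2P12, MTCO3P12 and MTATP6P1. They are 10 of 404 nuclear copies of mitochondrial protein genes among 62913 genes with a target in the deposited tables. The list was drawn up with the counts of these wells known, so the level of each copy is a description and is not tested. Of all 404 copies, 9 members rank 1 to 9 by counts summed over the wells. The lowest of these 9, MTCYBP18, held 40406 counts, and the next copy, MTND4LP30, held 25141 and is not a member. MTND6P4 ranks 18 with 6759 counts and is included as the copy of the light-strand gene ND6.

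Single cells of 2 human lines were sorted by FACS and their total RNA was sequenced, that is, without selection of polyadenylated RNA. A375 is a melanoma line, and its cells were labelled with an antibody to CD47 and sorted into 1× PBS. Jurkat (clone E6-1) is a T cell leukemia line, and its cells were labelled with an antibody to CD81 and sorted into lysis solution, so that sort buffer and cell line cannot be told apart. Each line was processed with SMARTer Stranded Pico Input reagents, version 2 (kit #634413) and with SMART-Seq Stranded reagents (kit #634444), giving 21 A375 wells and 18 Jurkat wells per kit. Wells of a group are single cells of 1 culture as far as the labels say, so p-values measure the spread between these wells, which may be technical. Library pools are not named in the labels and could not be compared. As a check of the labels, melanoma line markers held more counts than T cell markers in 19 and 17 A375 wells of kits #634413 and #634444, and the lists were level in the other 2 and 4. T cell markers held more in 18 of 18 Jurkat wells of each kit.

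The mitochondrial chromosome is a small circle that is transcribed along its whole length from both strands, and the long transcripts are cut into single messengers, ribosomal RNAs and transfer RNAs. All of its protein genes encode subunits of the respiratory chain: the ND genes of complex I (NADH dehydrogenase), CYB of complex III (the cytochrome bc1 complex), the CO genes of complex IV (cytochrome c oxidase) and the ATP genes of complex V (ATP synthase). ND6 is the only protein gene of the light strand, and all others lie on the heavy strand. Pieces of mitochondrial DNA were inserted into the nuclear genome repeatedly during evolution, and young insertions are still nearly identical to the mitochondrial sequence.

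The deposited tables have 200471 targets. The 37 genes of the mitochondrial chromosome have no transcript among them, so a read from a mitochondrial messenger can only be assigned to a nuclear target that shares sequence with it. The 10 copies lie in 2 blocks (coordinates on hg38). The block on chromosome 1 spans 5861 bases, chr1:629062-634922, on the plus strand, and holds in mitochondrial order MTND1P23, MTND2P28, MTCO1P12, MTCO2P12, MTATP6P1 and MTCO3P12. The block on chromosome 5 spans 4734 bases, chr5:134923303-134928036, and holds MTCYBP18, MTND5P11 and MTND4P12 on the minus strand and MTND6P4 on the plus strand, which is the mitochondrial arrangement with ND6 opposite to its neighbours. All 4 chromosome 5 copies lie in introns of PCBD2 (134905120 to 135007959, plus strand), none overlaps an exon of it, and MTND6P4 alone shares its strand. The 6 chromosome 1 copies lie within ENSG00000230021, annotated on the opposite strand, and MTCO1P12 and MTCO2P12 overlap exons of it. MTCO1P12 also overlaps a microRNA gene on the opposite strand, ENSG00000278791.

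To show how close the copies are to the mitochondrial genes, 75 bases from near the middle of the alignment of 4 copies are printed beside the mitochondrial sequence. Both are written 5′ to 3′ in the sense of the gene, and capitals mark the bases at which the 2 sequences differ. The length of 75 bases is that of a sequencing read. The MTCO1P12 stretch is shown because this copy holds the most counts. MTATP6P1 is shown because its share varied widely between Jurkat wells, MTND6P4 as the light-strand copy, and MTCYBP18 as the most diverged member. MT-CO1 is chrM:6690-6764 (plus strand) and MTCO1P12 is chr1:631861-631935 (plus strand), with 0 differences.
MT-CO1: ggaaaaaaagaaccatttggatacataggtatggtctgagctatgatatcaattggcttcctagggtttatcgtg
MTCO1P12: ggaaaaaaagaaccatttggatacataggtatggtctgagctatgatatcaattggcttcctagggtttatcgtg
MT-ATP6 is chrM:8830-8904 (plus strand) and MTATP6P1 is chr1:633999-634073 (plus strand), with 1 difference.
MT-ATP6: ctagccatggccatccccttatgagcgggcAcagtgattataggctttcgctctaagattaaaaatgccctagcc
MTATP6P1: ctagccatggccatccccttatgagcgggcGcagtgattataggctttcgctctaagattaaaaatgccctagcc
MT-ND6 is chrM:14375-14449 (minus strand) and MTND6P4 is chr5:134924347-134924421 (plus strand), with 4 differences.
MT-ND6: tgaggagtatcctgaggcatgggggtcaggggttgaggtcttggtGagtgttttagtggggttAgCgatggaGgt
MTND6P4: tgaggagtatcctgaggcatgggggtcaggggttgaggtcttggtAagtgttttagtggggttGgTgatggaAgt
MT-CYB is chrM:15080-15154 (plus strand) and MTCYBP18 is chr5:134923642-134923716 (minus strand), with 6 differences.
MT-CYB: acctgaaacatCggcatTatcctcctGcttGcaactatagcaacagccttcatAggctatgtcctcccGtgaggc
MTCYBP18: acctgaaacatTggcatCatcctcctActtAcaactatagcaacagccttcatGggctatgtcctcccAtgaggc

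Kallisto assigns a read through exact matches of short words (k-mers), 31 bases long by its default. The MTCYBP18 stretch, with a longest identical run of 22 bases, therefore shares no such word with MT-CYB, whereas the MTATP6P1 and MTND6P4 stretches do, with runs of 44 and 45 bases. Over whole genes the 2 blocks differed. On chromosome 1, MTCO1P12 had 20 mismatches in 1542 aligned bases and held 62.2% of the 31-base words of MT-CO1. MTATP6P1 held 61.3% of those of MT-ATP6 (10 mismatches in 681), MTND2P28 56.9% of those of MT-ND2 (17 in 1042), MTCO2P12 50.5% of those of MT-CO2 (12 in 682) and MTCO3P12 44.7% of those of MT-CO3 (10 in 547). MTND1P23 had 3 mismatches in 352 bases but covers 36.8% of MT-ND1, and held 27.8% of its words.

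The chromosome 5 copies were more diverged. MTND6P4 had 26 mismatches in 522 bases and held 30.3% of the MT-ND6 words. MTND4P12 (58 in 1376) held 18.3%, MTND5P11 (127 in 1812) held 13.4%, and MTCYBP18 (56 in 741) held 4.05% of the MT-CYB words and covers 64.9% of that gene. A 75-base read needs only 1 such word. Of all 75-base windows of the mitochondrial gene, between 71.7% and 93.9% held a word shared with the copy for MTND2P28, MTCO1P12, MTCO2P12, MTATP6P1 and MTCO3P12. It was 67.8% for MTND4P12, 63.6% for MTND6P4, 42.4% for MTND5P11, 36.2% for MTND1P23 and 16.6% for MTCYBP18. These windows are used below as the length over which a single 75-base read of a mitochondrial messenger could be counted for its copy. The libraries were sequenced as read pairs, which the windows do not model. How far the second read changes the matching length of each copy was not tested. They were counted on the reference mitochondrial sequence, not on that of each line.

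Nearly all counts lay on copies that share such words. The 10 members held 1928149 counts over all wells, 92.03% of the counts on the 404 copies. Of the 167035 counts on the other 394 copies, 99.1% were on the 35 that carry a 31-base word of the mitochondrial gene. The 359 copies without such a word held 1569 counts, and 262 of these had 0. Within its family, the member held the most counts in all 10 families: over 96% for ATP6, CO1, CO2, CO3, ND1 and ND2, 90.3% for ND6, 88.2% for ND4, 85.5% for ND5 and 60.5% for CYB. The remaining CYB counts were led by MTCYBP16 with 14799. The counts of a single copy are uncertain where another copy shares its words, because Kallisto divides such reads. RNA made from the nuclear copies themselves was not told apart from mitochondrial RNA. MTND6P4 is the only member on the strand of its host PCBD2. The median PCBD2 count was 1, 7, 0 and 5 in the 4 groups, and the median MTND6P4 count was 127, 65.0, 83.5 and 49.0. PCBD2 was counted on its annotated transcripts, and MTND6P4 overlaps no exon of it. These counts therefore do not measure unspliced PCBD2 RNA, whose part in the MTND6P4 counts was not tested. In the order A375 kit #634413, A375 kit #634444, Jurkat kit #634413 and Jurkat kit #634444, PCBD2 was at 0 in 9, 4, 11 and 6 wells.

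The share of a well's estimated counts on the 10 copies was low and even in Jurkat and uneven in A375. In Jurkat it ranged from 1.27% over a median of 2.17% to 2.80% with kit #634413 (mean 2.13% ± 0.460, SD, n = 18) and from 1.51% over 2.24% to 2.87% with kit #634444 (2.17% ± 0.388, n = 18). In A375 it ranged from 0% over 2.86% to 31.6% with kit #634413 (6.61% ± 8.99, n = 21) and from 0.0421% over 3.21% to 30.9% with kit #634444 (4.50% ± 6.41, n = 21). Total counts were 909 to 2567265 per well with a median of 813697, and all 9 wells under 203424 counts, which is 25% of that median, were A375 wells. In 6 A375 wells with totals of 909 to 2373 the copies held at most 10 counts, and 2 of these wells were at 0, which allows a share of up to 3 counts of the total. These 6 wells were left out of all proportions below. The other 72 wells held 9456 to 73392 counts on the copies.

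The highest shares were in A375 wells with few counts on protein-coding genes. Of the 72 wells, 6 had under 50% of their counts on protein-coding genes (4.84% to 44.4%), 4 of kit #634413 and 2 of kit #634444. The copies held 6.15% to 31.6% there, and an rDNA repeat entry held 25.02% to 58.8%. In the other 66 wells, protein-coding genes held 62.2% to 77.7%, the copies 1.27% to 8.84% and the rDNA entry 5.98% to 20.8%. These shares are percentages of the same total, so they are not independent. The number of counts on the copies in the 6 wells, 23216 to 73152, lay within the range of the other A375 wells, 12389 to 73392. In deep wells (at least 203424 counts) with at least 50% on protein-coding genes, a selection made after seeing the data, the A375 share was 2.92% ± 0.700 (n = 15, 2.10% to 4.14%) with kit #634413 and 3.76% ± 1.76 (n = 15, 1.94% to 8.84%) with kit #634444. These 2 ranges still overlapped the Jurkat ranges.

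**Figure D1:**
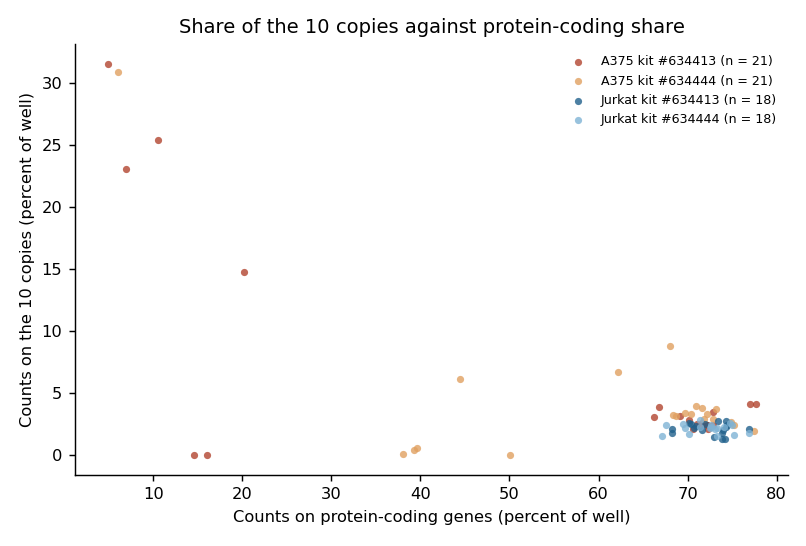
Percent of each well's estimated counts on the 10 copies (y axis) against the percent on protein-coding genes (x axis), with 1 point per well, coloured by cell line and kit. Jurkat wells form a tight group between 1.27% and 2.87% on the y axis, and the A375 wells with under 50% on protein-coding genes reach 31.6%.

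Among the 10 copies, complexes I and IV held most of the counts in every group. Complex IV (MTCO1P12, MTCO2P12 and MTCO3P12) held 43.5% ± 3.23 of the copies' counts in A375 with kit #634413 (n = 19), 44.3% ± 3.27 in A375 with kit #634444 (n = 17), 38.7% ± 3.95 in Jurkat with kit #634413 (n = 18) and 40.2% ± 4.82 in Jurkat with kit #634444 (n = 18). Complex I, with 5 copies, held 41.4% ± 2.13, 41.1% ± 2.59, 44.7% ± 2.95 and 42.7% ± 3.48 in the same order. The A375 and Jurkat ranges overlapped for both complexes. Complex V (MTATP6P1) held 12.6% to 15.1% on average and complex III (MTCYBP18) 1.91% to 2.78%. The chromosome 1 block held 73.6%, 73.9%, 71.98% and 75.8%, so the split between the blocks varied by less than 4 percentage points between the group means.

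**Figure D2:**
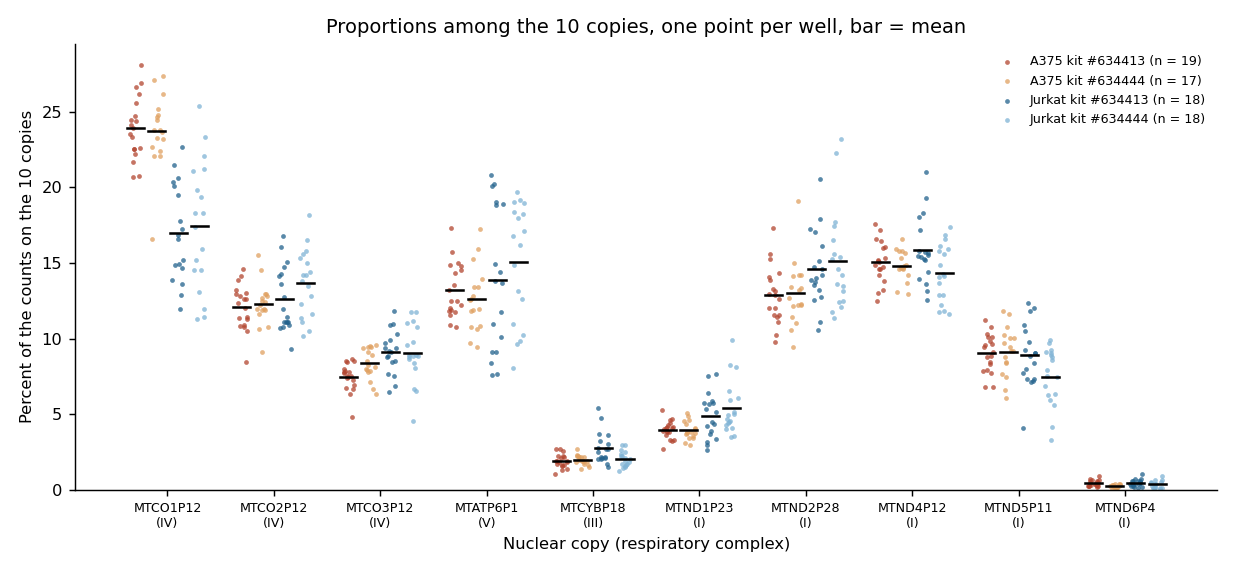
Percent of the counts on the 10 copies (y axis) held by each copy (x axis, grouped by respiratory complex), with 1 point per well and a bar at the mean of each cell line and kit. MTCO1P12 lies higher in A375 (means 23.9% and 23.7%) than in Jurkat (16.96% and 17.5%), and MTND6P4 lies near 0 in all 4 groups.

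MTCO1P12, the copy of the gene for the catalytic subunit of cytochrome c oxidase, had the largest difference between the lines in percentage points, 6.99 with kit #634413 and 6.28 with kit #634444. Its part of the copies' counts ranged from 20.7% over a median of 23.9% to 28.1% in A375 and from 11.96% over 16.7% to 22.7% in Jurkat with kit #634413. With kit #634444 it ranged from 16.6% over 23.8% to 27.4% in A375 and from 11.3% over 17.9% to 25.4% in Jurkat. The groups overlapped in part: with kit #634413, 12 of 19 A375 wells lay above every Jurkat well and 16 of 18 Jurkat wells below every A375 well, and with kit #634444 these counts were 3 of 17 and 8 of 18. In the 6 A375 wells with under 50% on protein-coding genes it was 20.8% to 24.7%, within the 16.6% to 28.1% of the other A375 wells.

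The other complex IV copies, of genes that also encode core subunits of the oxidase, differed less. MTCO2P12 had medians of 12.4%, 12.2%, 11.7% and 13.998% in A375 kit #634413, A375 kit #634444, Jurkat kit #634413 and Jurkat kit #634444, with overlapping ranges (8.45% to 14.6%, 9.14% to 15.5%, 9.34% to 16.8% and 10.2% to 18.1%). MTCO3P12 ranged from 4.79% over 7.52% to 8.62% in A375 and from 6.44% over 9.13% to 11.8% in Jurkat with kit #634413. In that kit 12 of 18 Jurkat wells lay above every A375 well. With kit #634444, where it ranged from 6.32% over 8.27% to 9.56% in A375 and from 4.52% over 8.89% to 11.8% in Jurkat, 6 of 18 did.

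MTATP6P1, the copy of the gene for subunit a of ATP synthase, varied widely among Jurkat wells (SD 4.77 and 3.94 percentage points with kits #634413 and #634444, against 1.80 and 2.13 in A375). With kit #634413 it ranged from 7.55% over 13.7% to 20.8% in Jurkat and from 10.8% over 12.5% to 17.3% in A375. The Jurkat range enclosed the A375 range. With kit #634444 it ranged from 8.06% over 16.5% to 19.7% in Jurkat and from 9.47% over 12.6% to 17.2% in A375. The Jurkat extremes of kit #634413 rest on 1496 and 5446 MTATP6P1 counts, with 95% Wilson intervals of 7.19% to 7.93% and 20.3% to 21.3%, which cover counting error only. Across groups and copies, the SD between wells was 2.94 to 19.01 times the SD that counting alone gives.

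MTCO1P12 and MTATP6P1 varied in opposite directions from well to well. The count of MTCO1P12 was 0.595 to 3.0 times that of MTATP6P1 in Jurkat wells of kit #634413 and 0.626 to 2.46 times in those of kit #634444, against 1.25 to 2.61 and 1.09 to 2.83 times in A375. The SD of the log2 ratio was 0.74 and 0.73 in Jurkat and 0.29 and 0.37 in A375 (kit #634413, then kit #634444). The Spearman correlation of the 2 percentages across wells was -0.73 (n = 19), -0.82 (n = 17), -0.77 (n = 18) and -0.70 (n = 18) in the order of groups above. It is a description: percentages of 1 sum push each other down, and the wells share a library preparation. MTCO1P12 and MTCO2P12 instead varied together, with correlations of 0.70, 0.50, 0.44 and 0.62 and the smallest SD of a log2 ratio of all 45 pairs in each group (0.15 to 0.28). MTATP6P1 and MTCO3P12, which are neighbours on the chromosome, had correlations of 0.089 and 0.40 in A375 and 0.68 and 0.53 in Jurkat. MTND1P23 and MTND2P28 had 0.12 and 0.30 in A375 and 0.59 and 0.57 in Jurkat. Not all copies of chromosome 1 varied together, since MTCO2P12 and MTATP6P1 had correlations of -0.67, -0.46, -0.37 and -0.62 in the order of groups above.

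**Figure D3:**
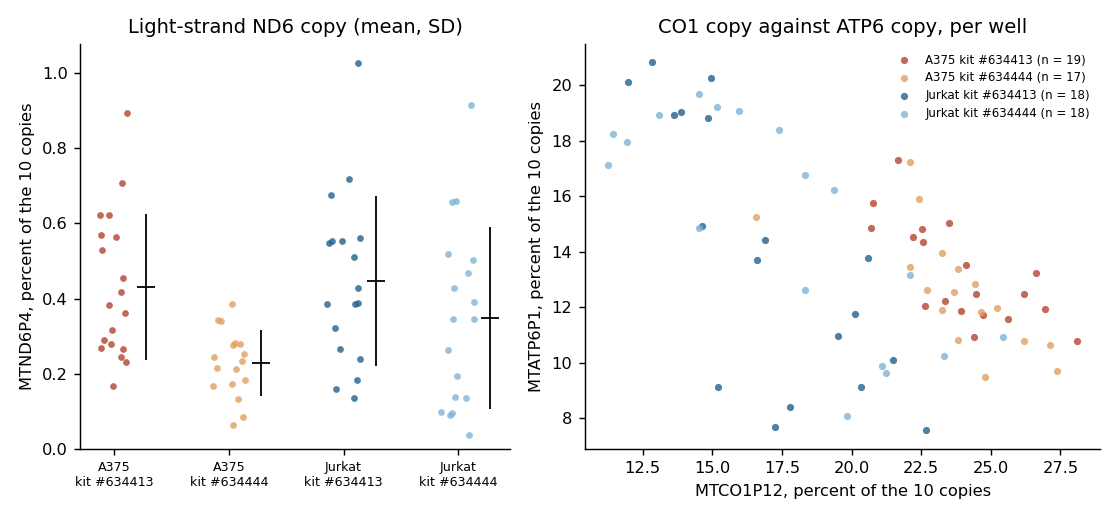
Left, MTND6P4 as a percent of the counts on the 10 copies (y axis) in each cell line and kit, with 1 point per well, the mean and the SD. Right, MTATP6P1 (y axis) against MTCO1P12 (x axis), both as a percent of the 10 copies, with 1 point per well. MTND6P4 stays at or under 1.03%, and wells with more MTCO1P12 have less MTATP6P1.

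The complex I copies of heavy-strand genes varied unequally between groups. MTND4P12 had medians of 15.1%, 14.7%, 15.5% and 14.2% in the order of groups above, and its ranges overlapped in all 4 (12.5% to 17.6%, 12.9% to 16.6%, 12.5% to 20.99% and 11.7% to 17.4%). MTND2P28 had medians of 12.9%, 12.7%, 14.1% and 14.4%, its mean in A375 minus that in Jurkat was -1.71 and -2.16 percentage points with kits #634413 and #634444, and 2 of 18 Jurkat wells lay above every A375 well in each kit. MTND5P11 had medians of 9.11%, 9.19%, 8.92% and 7.73%, and with kit #634444, 6 of 17 A375 wells (6.08% to 11.8%) lay above every Jurkat well (3.26% to 9.92%). MTND1P23 had medians of 3.98%, 3.80%, 4.81% and 4.82%, and 8 of 18 and 7 of 18 Jurkat wells lay above every A375 well with kits #634413 and #634444. MTCYBP18, the only copy of complex III, had medians of 1.88%, 1.88%, 2.60% and 1.94%, with 8 of 18 Jurkat wells (1.5% to 5.40%) above every A375 well (1.06% to 2.71%) in kit #634413.

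The heavy-strand copies came closer together once their matching length, counted in windows for single reads, was taken into account. As counted, the highest of the 9 heavy-strand copies held 12.6, 12.1, 6.10 and 8.61 times the percentage of the lowest, MTCYBP18, in the order of groups above. On the TPM scale, which divides by the length of the copy itself, the highest mean was 7.97, 7.89, 5.75 and 8.52 times the lowest. Per matching 75-base window of the mitochondrial gene, it was 2.22, 2.08, 2.17 and 2.83 times the lowest. MTCYBP18, with few matching windows, moved most: relative to MTCO1P12 in the same well, its counts per window were 0.587 ± 0.161, 0.609 ± 0.124, 1.24 ± 0.538 and 0.916 ± 0.396. The values per window of MTATP6P1 relative to MTCO1P12 were 1.30 ± 0.273 and 1.26 ± 0.346 in A375 and 2.06 ± 1.04 and 2.22 ± 1.002 in Jurkat.

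Ordered by this level per window, MTCO2P12 and MTATP6P1 came first in all 4 groups and MTND6P4 last. Neighbours in the order differed by less than the larger of their SDs between wells, with 2 kinds of exception. In A375 with kit #634413, MTCO2P12 (1.23 ± 0.124) exceeded MTCO1P12, which is 1 by definition. In every group, MTND6P4 lay below the lowest heavy-strand copy by more than that SD.

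**Figure D4:**
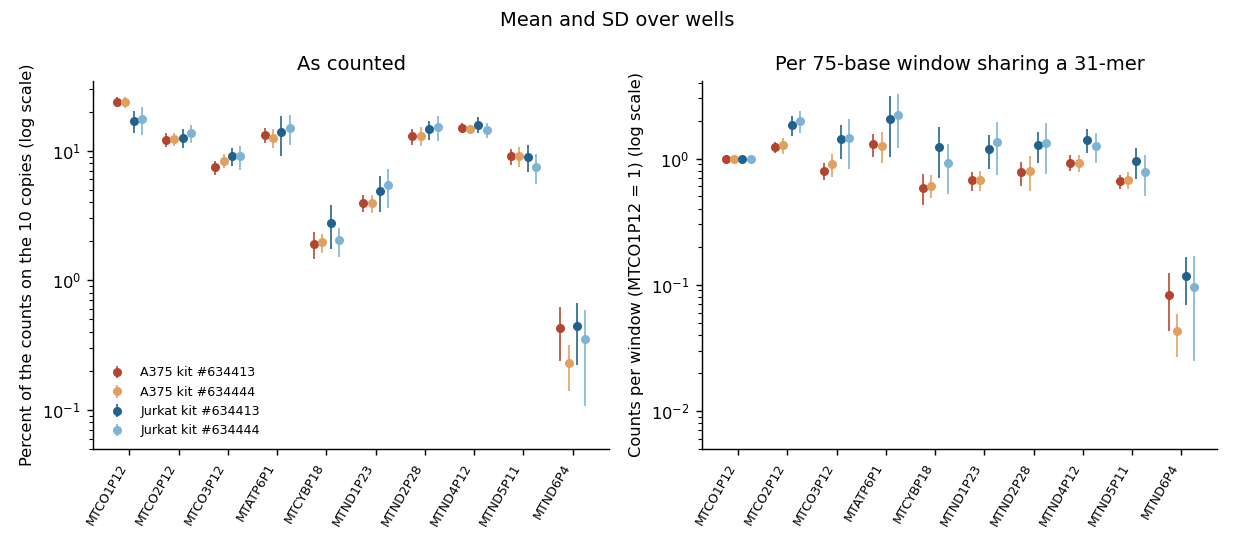
Mean and SD over wells of each copy (x axis), on log y axes, for each cell line and kit. Left, the percent of the counts on the 10 copies. Right, counts per matching 75-base window relative to MTCO1P12. The heavy-strand copies span 6.10 to 12.6-fold on the left and 2.08 to 2.83-fold on the right, and MTND6P4 lies below them in both.

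MTND6P4, the copy of the light-strand gene ND6, was the lowest of the 10 copies on each of these scales. It held 0.167% over a median of 0.383% to 0.895% of the copies' counts in A375 with kit #634413 and 0.0640% over 0.234% to 0.385% with kit #634444. In Jurkat it held 0.135% over 0.408% to 1.03% and 0.0378% over 0.347% to 0.915%. The lowest Jurkat value rests on 4 counts (95% Wilson interval 0.0147% to 0.0973%). Per matching window, the median heavy-strand copy was 9.64, 21.1, 10.9 and 13.9 times as high as MTND6P4, and the lowest heavy-strand copy was 7.11, 14.2, 8.15 and 8.18 times as high.

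The MTND6P4 percentage differed between kits in A375. It was lower with kit #634444 (0.228% ± 0.0883, SD, n = 17) than with kit #634413 (0.431% ± 0.194, n = 19), a difference of -0.203 percentage points (two-sided permutation test with 100000 resamples, p = 0.00021, Benjamini-Hochberg adjusted p = 0.00084 over 4 comparisons). Of the A375 wells, 9 of kit #634413 lay above every well of kit #634444 and 3 of kit #634444 below every well of kit #634413. The adjusted p stayed between 0.00076 and 0.00316 under the alternatives, and in deep wells with at least 50% on protein-coding genes the difference was -0.219 percentage points. In Jurkat the same difference was -0.0971 percentage points (0.349% ± 0.242 against 0.446% ± 0.226, permutation test, adjusted p = 0.295). Whether the kit difference differs between the lines was not tested on this scale. Between the lines, the differences were -0.0153 percentage points with kit #634413 (permutation test, adjusted p = 0.828) and -0.121 with kit #634444 (adjusted p = 0.115). Both were smaller than the SD between Jurkat wells, but the second was larger than the SD between A375 wells of its kit (0.0883). With kit #634444, 8 of 18 Jurkat wells lay above every A375 well and 1 below. With kit #634413 these counts were 1 and 2 of 18. MTND6P4 held 87.3% and 82.1% of the counts on all ND6 copies in A375 with kits #634413 and #634444, against 98.6% and 97.8% in Jurkat. Counts on the other ND6 copies, led by MTND6P3, are not in these percentages, and their effect on the differences was not tested.

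Relative to all genes, MTCO1P12 was higher in A375 than in Jurkat with both kits, while the calls for the other copies differed with the kit and the wells used. In CPM, the counts scaled to a common total per well, MTCO1P12 ranged from 4907 over a median of 7276 to 70130 in deep wells of A375 (n = 17) and from 2224 over 3341 to 5255 in Jurkat (n = 18) with kit #634413. With kit #634444 it ranged from 4627 over 7918 to 20545 in A375 (n = 16) and from 2407 over 3506 to 6062 in Jurkat (n = 18). The A375 and Jurkat wells overlapped at the ends of these ranges. In edgeR's quasi-likelihood test over all genes and all 39 wells of kit #634413, those with few counts included, 10 of 10 copies were higher in A375, with log2 fold changes of 2.41 to 3.40 and a median of 2.84, against -0.13 over all 11171 genes tested, of which 23.1% were called. With kit #634444, MTCO1P12 (log2 fold change 1.85 ± 0.66 SE, edgeR adjusted p = 0.0239), MTND5P11 (1.51 ± 0.60, adjusted p = 0.0452) and MTCYBP18 (1.37 ± 0.55, adjusted p = 0.0488) were called higher in A375, 3 of 10 copies, a share near that of all 12258 genes, of which 30.3% were called. The 10 log2 fold changes were 0.33 to 1.85 with a median of 1.36, against -0.22 over all genes.

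These fold changes differed with the wells and the scaling used. In deep wells alone, 10 of 10 copies were called higher in A375 with kit #634413, with a median log2 fold change of 2.46, and 8 of 10 with kit #634444, with a median of 0.78. Of all genes tested in deep wells, 2648 of 11660 were called with kit #634413 and 4325 of 12732 with kit #634444. In deep wells with at least 50% on protein-coding genes, 5 of 10 copies were called higher in A375 with kit #634413 (23.1% of all genes tested) and 8 of 10 with kit #634444 (33.7%). The median log2 fold changes were 0.43 and 0.82, against 0.11 and 0.18 over all genes, so the move with kit #634444 came with the choice of deep wells and that with kit #634413 with the requirement on protein-coding counts. MTCO1P12 had the largest, 1.03 ± 0.12 with kit #634413 (edgeR adjusted p = 1.46e-09) and 1.41 ± 0.17 with kit #634444 (adjusted p = 5.68e-09). In the same wells of kit #634413, MTND5P11 (0.49 ± 0.16), MTCO2P12 (0.45 ± 0.12), MTATP6P1 (0.44 ± 0.17) and MTND4P12 (0.42 ± 0.13) were also called, and MTCYBP18 was at -0.05 ± 0.22. MTCO1P12 was called higher in A375 in both kits under every alternative run. For kit #634413, DESeq2 called 8 of 10 copies with a median log2 fold change of 1.23 (3024 of 11171 genes called), and MTCYBP18 and MTATP6P1 missed the threshold. Scaling by library size alone called 10 of 10 with a median of 1.54 (2536 of 11171 genes). For kit #634444, DESeq2 called 4 copies and 4304 of 12258 genes, so its share of copies was near that of all genes. Without the filter on low counts, 6 copies were called (9147 of 23916 genes). Deep wells gave 8 copies (4325 of 12732 genes), and scaling by library size alone gave 9 (4326 of 12258 genes). The part of the low protein-coding share in these differences was not tested beyond leaving those wells out.

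**Figure D5:**
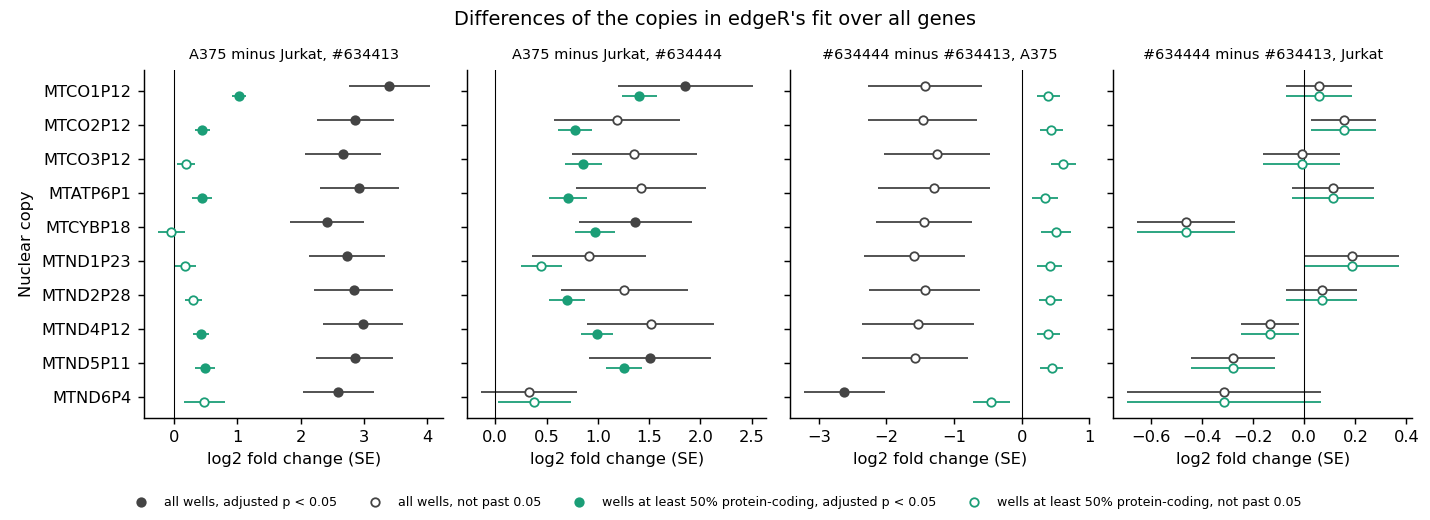
Log2 fold change of each copy (y axis) with its SE in edgeR's fit over all genes, for the 2 cell line comparisons (A375 minus Jurkat) and the 2 kit comparisons (kit #634444 minus kit #634413), in all wells (black) and in deep wells with at least 50% of counts on protein-coding genes (green), with filled symbols where the adjusted p passed 0.05. MTCO1P12 lies to the right of 0 in all fits between the lines, and the A375 kit differences move from -2.62 to -1.25 in all wells to -0.45 to 0.62 in the selected wells.

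Between kits, few genes of any kind were called. In A375, MTND6P4 was lower with kit #634444 (log2 fold change -2.62 ± 0.60 SE, edgeR adjusted p = 0.0364), 1 of 10 copies where 0.0744% of all genes were called, and the other 9 had values of -1.59 to -1.25 that missed the threshold. In deep wells with at least 50% on protein-coding genes, none was called (0.0149% of all genes). There, 8 copies had an unadjusted p under 0.05 in edgeR, as had 479 of 13464 genes, and the copies share their wells, so these are not 8 independent results. MTND6P4 was at -0.45 ± 0.28 (edgeR adjusted p = 0.999) and the other 9 were at 0.34 to 0.62. The sign of the A375 kit difference of these 9 copies therefore turned with the choice of wells, and DESeq2 and library size scaling called none of the 10. In Jurkat, edgeR called 0 of 10 copies (0.0376% of all genes), as did DESeq2, with log2 fold changes of -0.46 to 0.19. Of the copies, only MTCYBP18 had an unadjusted p under 0.05 there in edgeR (-0.46 ± 0.19), as had 349 of 10625 genes. The interaction of kit and cell line was called for 0 of 10 copies by edgeR, as by DESeq2, and for 1.53% of all genes by edgeR. It was -2.15 ± 0.70 for MTND6P4 (edgeR adjusted p = 0.106), and 2 of 10 copies had an unadjusted p under 0.05, against 772 of 11610 genes. In deep wells with at least 50% on protein-coding genes it was again called for 0 of 10 (1.21% of all genes).

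Few nuclear subunit genes of the same complexes were called between the lines with kit #634413, and more with kit #634444. Of all genes tested, 23.1% were called with kit #634413 (1381 higher and 1199 lower in A375, of 11171) and 30.3% with kit #634444 (1734 higher and 1986 lower, of 12258). The shares of complexes I, III, IV and V called were at or under this background with kit #634413, and with kit #634444 those of complexes I and IV were too, so these counts are no result about the lists. Of 36 nuclear complex I subunits tested, 1 was higher and 5 were lower in A375 with kit #634413, and 0 were higher and 8 lower with kit #634444. NDUFS5, an accessory subunit, had log2 fold changes of -1.74 ± 0.47 and -2.17 ± 0.43 with kits #634413 and #634444. In complex III, 0 of 9 were higher and 2 and 4 were lower, among them UQCR11 (-2.33 ± 0.85 and -2.53 ± 0.58). For complex IV, 0 were higher and 2 of 11 and 3 of 10 lower, led by COX6C (-1.58 ± 0.47 and -2.30 ± 0.43). For complex V, 0 of 17 were higher and 3 and 10 lower, led by ATP5MJ (-2.11 ± 0.49 and -2.66 ± 0.44). Complex II, which has no mitochondrially encoded subunit, had 1 of 4 higher in each kit, SDHD (2.72 ± 1.04) and SDHC (1.44 ± 0.56). For complexes I, III, IV and V the list medians of the log2 fold change with kit #634413 were -0.81, -1.03, -0.99 and -0.72, against -0.13 over all genes. They were -0.997, -1.04, -0.90 and -1.34 with kit #634444, against -0.22. In deep wells with at least 50% on protein-coding genes, 2 of 36, 1 of 9, 1 of 11 and 2 of 17 members of these 4 lists were lower with kit #634413. With kit #634444, 5 of 37, 3 of 9, 2 of 10 and 9 of 17 were lower. The complex I list had 1 higher in each kit. Of all genes tested in these wells, 23.1% and 33.7% were called. Only complex V with kit #634444 had a share above this background, so the other counts are no result about the lists. The medians of the 4 lists in these wells were -0.48, -0.67, -0.63 and -0.32 with kit #634413, against 0.11 over all genes, and -0.56, -0.58, -0.41 and -0.85 with kit #634444, against 0.18.

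The machinery of mitochondrial RNA was called for few genes, in shares near or under the 23.1% and 30.3% of all genes called with kits #634413 and #634444. Of 8 mitochondrial transcription genes, TFB2M, a transcription factor of the mitochondrial chromosome, was higher in A375 with kit #634413 (2.63 ± 0.79) and 0 were called with kit #634444. Of 13 RNA processing genes, 0 were called with kit #634413 and 4 were lower with kit #634444, among them GRSF1 (-1.79 ± 0.45), a protein of the mitochondrial RNA granules, and FASTKD1 (-2.49 ± 0.70). Of 8 RNA stability and decay genes, 0 were called in either kit. In deep wells with at least 50% on protein-coding genes, where 23.1% and 33.7% of all genes were called, 0 of the 13 RNA processing genes were higher and 1 and 3 were lower with kits #634413 and #634444. In the same wells, 2 of the 8 stability and decay genes were higher in each kit, among them LRPPRC (1.15 ± 0.34 and 1.04 ± 0.23), which stabilises mitochondrial messengers, and TFB2M was higher in both kits (3.02 ± 0.80 and 1.67 ± 0.64). Between kits, 0 genes of these lists were called in either line. All of these fold changes share their wells with those of the copies.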

How the data were processed

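Groups of the 78 single-cell total RNA libraries follow the labels for line and kit. The authors trimmed the paired-end 75-base reads with cutadapt and quantified Ensembl transcripts with Kallisto 0.43.1 in stranded mode; the submitters' processing notes also name STAR 2.5.3 and hg38. The authors deposited estimated counts, which are not normalized, and TPM, which divides them by the effective length of each target. The k-mer length is not given in the sources used here, and 31, the default, was assumed.

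Here, the estimated counts were summed to 62913 genes through GENCODE v44, under which transcripts not found there kept their identifiers. The 10 members, the gene lists and the tests were chosen with earlier results of these data known. Genes were named by rule: the members, and per list at most 2 genes per direction with the smallest adjusted p past the threshold in a cell line comparison. Not all genes that this rule names are reported here. Copies were aligned to the mitochondrial genes of hg38 with Biopython 1.88. Proportions use the 72 wells with at least 200 counts on the copies. Percentages of MTND6P4 were compared with two-sided permutation tests (100000 resamples, Python 3.11.15, SciPy 1.17.1).

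After rounding, edgeR 4.0.16 (R 4.3.3) with TMM, glmQLFit and glmQLFTest was run on genes that reached 5 counts in 25% or more of a fit's wells, with Benjamini-Hochberg adjustment over all genes and a threshold of 0.05. The procedure was also run on simulated counts whose spread was taken from these fits, and the outcome is not reported here. Alternatives were DESeq2 1.42.0 (poscounts), scaling by library size, a filter of only 1 count in 3 wells, deep wells (at least 203424 counts), TPM, medians, 1000 counts on the copies and all 404 copies as denominator. Deep wells with at least 50% of counts on protein-coding genes were added after the data had been seen. Totals of 909 to 2567265 counts per well set the precision, and intervals and floors cover counting error only.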

Additional observations from a re-analysis of the deposited data

How the results depend on the processing

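Across settings, 250 values changed neither direction nor call, or moved by less than their spread, while 25 reversed, 20 gained and 10 lost a call, and 9 counts of called genes moved by over 1.5 times. Without the low-count filter, edgeR called 7603 genes (2580 with it) and 9147 (3720) between the lines with kits #634413 and #634444, 1939 (9) and 1450 (4) between kits in A375 and Jurkat, and 3093 (178) for the interaction. Between kits in A375, deep wells left 1 call, and 2 with at least 50% on protein-coding genes. DESeq2 called 26 genes between kits in Jurkat and 28 for the interaction. In deep wells with at least 50% on protein-coding genes, these log2 fold changes reversed: MTCYBP18 between the lines with kit #634413 (-0.0464); between kits in A375 MTND1P23 0.42, MTND2P28 0.43, MTND4P12 0.40, MTND5P11 0.45, MTCYBP18 0.51, MTCO1P12 0.40, MTCO2P12 0.44, MTCO3P12 0.62 and MTATP6P1 0.34; and for the interaction MTND1P23 0.23, MTND2P28 0.36, MTND4P12 0.53, MTND5P11 0.73, MTCYBP18 0.98, MTCO1P12 0.34, MTCO2P12 0.29, MTCO3P12 0.63 and MTATP6P1 0.23. Between kits in Jurkat, MTND2P28 (-0.0220) and MTCO1P12 (-0.0374) reversed with DESeq2, and MTCO3P12 with library size alone (0.0128) and without the filter (0.0017). The MTND6P4 percentage between the lines with kit #634413 reversed on TPM (0.0227 percentage points) and in deep wells with at least 50% on protein-coding genes (0.00821). The fits on selected wells hold fewer wells by construction, and the cause was not tested. The median log2 fold change of all genes between the lines with kit #634413 moved between -0.24 and 0.22. No paired analysis was run, because the wells of different lines and kits are different single cells and form no pairs. Depth limits MTND6P4 most, with as few as 4 counts in a well, and wells under 200 counts on the copies gave no proportion.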

Other observations

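Mitochondrial protein genes without a member also had a copy with counts. MTATP8P1, next to MTATP6P1 on chromosome 1 and overlapping it by 46 bases, held 17601 counts, 80.4% of its family. MTND4LP30, which overlaps MTND4P12 by 7 bases on chromosome 5, held 25141 counts, 85.9% of its family. MTND3P25 held 2986 counts, 96.9% of its family, while 3.48% of the 31-base words of MT-ND3 are in any target found in GENCODE v44. The 2 mitochondrial ribosomal RNAs share 0% (MT-RNR1) and 1.24% (MT-RNR2) of their words with any such target. Of 13 humanin-like copies of MT-RNR2, 0 are among the 195850 targets that GENCODE v44 names. The rest of the 200471 targets have identifiers alone, so whether humanin-like copies are among them was not tested.

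Among genes and transcripts not named as nuclear copies, those whose level in a well was most like the summed share of the 10 copies were ranked by the mean over the 4 groups of the Spearman correlation with log2 CPM, over 17, 16, 18 and 18 deep wells. All share the wells and their totals, so the values are a description. The highest mean was 0.58 for ENST00000540040 and 0.57 for ENST00000600213, transcripts that GENCODE v44 does not name, and 4 of the 5 highest were of this kind. Nuclear copies were left out of this ranking by gene name, so copies without a name could remain in it. The sequences of these 4 transcripts were not examined here. Whether they hold mitochondrial sequence themselves, or are humanin-like copies, was therefore not tested. The named gene among the 5 was SPTLC3, a subunit of serine palmitoyltransferase, with correlations of 0.47, 0.72, 0.57 and 0.38 and a mean of 0.54. A transcript of SPTLC3 carries 2 of the 31-base words of MT-ND1, so its counts cannot be taken as independent of mitochondrial reads. The median over all genes was -0.10 and the 95th percentile 0.11.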
